A study of Arabidopsis thaliana with 12 samples.

Results

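The 5 nuclear genes of the photosynthetic apparatus followed here were PSBY (AT1G67740), PSBW (AT2G30570) and PSB27 (AT1G03600) of photosystem II, PSAN (AT5G64040) of photosystem I, and LHCB1.5 (AT2G34420, symbol LHB1B2) of the light-harvesting antenna. They were chosen by locus, with earlier results of these data known. Each was read by the 1 probe whose annotation names that gene and no other. The set thus holds 5 of the 692 single-gene probes on an array of 3439 probes. Total RNA of wild-type Arabidopsis thaliana, ecotype Columbia 0, was hybridized to 12 arrays. The 6 recovered samples came from plants held for 24 h at 4 °C in medium light, which the labels call photoinhibitory, and then returned to 20 °C in medium light for 24 h. The 6 control samples came from plants grown at 20 °C in medium light. No array was made at the end of the cold, so the comparison asks how transcript levels stood after the return to warmth relative to plants kept warm. No label names the tissue, and 0 of 15 marker genes fixed for green tissue, root, flower and senescence had a probe of its own.

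Photosystem II splits water and photosystem I reduces ferredoxin. Both draw excitation energy from chlorophyll a/b-binding antenna proteins. Excess light at low temperature damages photosystem II faster than it is repaired, and repair needs the reaction centre to be taken apart and rebuilt. PSBW and PSBY are small membrane subunits of photosystem II, and PSBW is known for its part in holding photosystem II and its antenna together in supercomplexes. PSB27 is a lumenal protein that binds photosystem II during assembly and repair and is not a subunit of the mature complex. PSAN is a lumenal subunit of photosystem I that helps plastocyanin deliver electrons. LHCB1.5 is a copy of the major antenna protein of photosystem II, encoded by a family of near-identical LHCB1 genes. Probe sequences were not used here, so binding of other LHCB1 transcripts to the LHCB1.5 probe was not assessed.

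The values are intensities in arbitrary units on a scale from 0 to 100, and the authors' scaling of them is not stated in the labels. The groups differed over the whole array: the median probe lay between 0.0971 and 0.128 on recovered arrays and between 0.536 and 0.569 on control arrays, and 388 to 564 probes stood at 0 on recovered arrays, against 154 to 162 on control arrays. None of the 5 members was at 0 on any array. Nothing in the labels says whether replicates were separate plants, and the p-values therefore reflect the spread among these 6 samples a group, part of which may be technical. Control samples 1 and 2, 3 and 4, and 5 and 6 were closely alike (correlation of deviations from the group mean across probes 0.813 to 0.927, against -0.665 to -0.112 for other control samples). In recovered samples consecutive ones correlated at -0.115 to 0.0092, against -0.279 to -0.187 for other recovered samples. Consecutive recovered samples were thus also more alike than others, though by less than in controls. Probes are not independent replicates. Values with consecutive samples averaged stand beside limma calls in deposited and quantile-normalized values and beside the deposited ratios below. Other scalings, and fits that leave out samples, were not run with averaged samples and treat the samples as separate. The tests of ranks and of quantile-normalized ratios treat the 6 samples a group as separate, since 3 averaged values against 3 cannot give an exact p below 0.10.

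In the deposited intensities 4 of the 5 transcripts were higher after recovery and PSB27 was lower. The 4 higher ones, PSBY, PSBW, PSAN and LHCB1.5, stood at 1.68 to 1.93 times their control means, and in each of them every recovered sample lay above every control sample. Over all 3439 probes such a separation upward was seen in 5.15%. Higher values were far more common among bright probes, where these 4 lie. In deposited values limma called 65% of the brightest 5% of tested probes higher, which include PSBW, PSAN and LHCB1.5. In the next of 20 brightness bins, which holds PSBY, it called 56 of 120 higher. After quantile normalization PSBY and PSAN were still called higher, while PSBW and LHCB1.5 did not pass. A bulk sample cannot tell more RNA per cell from more cells of a kind.

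PSBY had a lowest, median and highest intensity of 2.22, 2.96 and 3.63 in recovered samples, against 1.34, 1.505 and 1.87 in control samples. The means were 2.86 ± 0.490 and 1.55 ± 0.201 (SD, n = 6 each), 1.85 times higher after recovery, with no overlap. PSBW, the brightest of the 5 probes, ran over 37.7, 43.1 and 48.3 in recovered samples and over 22.9, 26.0 and 27.5 in control samples. Its means were 43.1 ± 3.73 and 25.7 ± 1.74, 1.68 times higher, and the lowest recovered sample was 10.2 units above the highest control sample.

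PSB27 was the only member with overlapping groups. Its intensities were 1.12, 1.23, 0.750, 0.909, 0.778 and 0.714 in recovered samples 1 to 6, against 1.2997, 1.19, 5.02, 5.57, 6.78 and 7.30 in control samples 1 to 6. The recovered samples were all low and close together, whereas control samples 1 and 2 were near the recovered level and control samples 3 to 6 were several times higher. Only recovered sample 2, at 1.23, exceeded a control sample, control sample 2 at 1.19. The means were 0.918 ± 0.214 and 4.53 ± 2.67 (SD, n = 6 each), a ratio of 0.203.

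PSAN had a lowest, median and highest intensity of 4.296, 6.21 and 7.78 in recovered samples, against 2.77, 3.72 and 3.98 in control samples. The means of 6.14 ± 1.17 and 3.52 ± 0.457 differed by a factor of 1.75, and recovered sample 1 came nearest to the control range. LHCB1.5 ran over 23.0, 26.3 and 31.4 in recovered samples and over 10.7, 12.6 and 17.5 in control samples. Its means of 26.5 ± 3.18 and 13.7 ± 2.79 gave the largest factor of the 5, 1.93. Control samples 1 and 2, where PSB27 was lowest, were the 2 highest control samples for PSBY, PSAN and LHCB1.5.

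**Figure D1:**
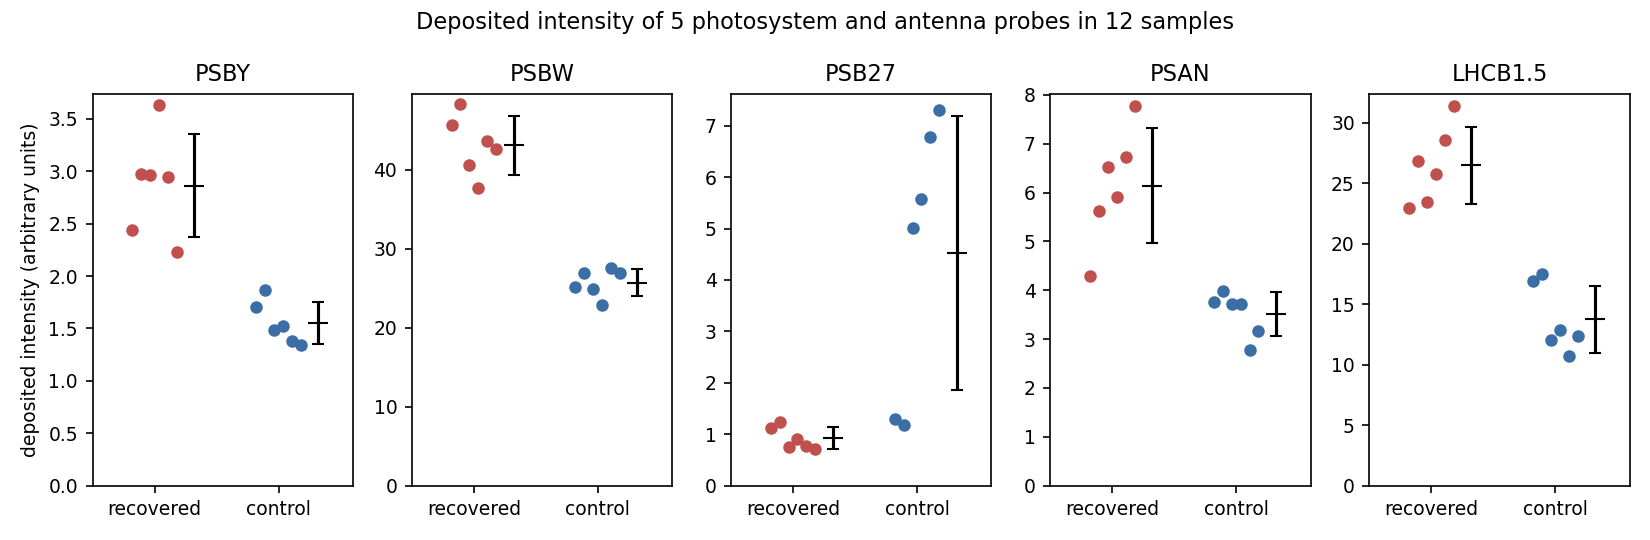
Deposited intensity (vertical axis, arbitrary units, from 0) of each member in the 6 recovered samples (red, left) and 6 control samples (blue, right), in the order of the sample numbers, with mean and SD as black bars. PSBY, PSBW, PSAN and LHCB1.5 do not overlap between groups, while PSB27 lies between 0.714 and 1.23 in recovered samples and between 1.19 and 7.30 in control samples.

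As a share of all signal on its array, PSBW took up 1.34% ± 0.110 in recovered and 0.699% ± 0.0512 in control samples (SD, n = 6 each). LHCB1.5 took up 0.825% ± 0.104 in recovered and 0.374% ± 0.0790 in control samples. These shares were 1.92 and 2.21 times higher after recovery. PSBY and PSAN had shares 2.11 and 2.001 times the control share. PSB27 had 0.232 times its control share, at 0.0285% ± 0.00635 in recovered and 0.123% ± 0.0721 in control samples.

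The test of each difference was limma's moderated test on log2 intensities, fitted to the 2409 probes with no 0 on any array, with p-values adjusted over those probes (Benjamini-Hochberg, threshold 0.05). In deposited values all 5 members passed. LHCB1.5 rose by 0.96 on the log2 scale (SE 0.143, adjusted p = 3.95e-05), PSBY by 0.88 (SE 0.135, adjusted p = 5.32e-05), PSAN by 0.79 (SE 0.149, adjusted p = 0.000293) and PSBW by 0.74 (SE 0.0928, adjusted p = 8.56e-06). PSB27 had a log2 difference of -1.999 (SE 0.468, adjusted p = 0.00155). With consecutive samples averaged to 3 values a group all 5 still passed limma's test, with adjusted p of 0.00543 for PSBY, 0.00571 for PSBW, 0.0267 for PSB27, 0.0139 for PSAN and 0.00597 for LHCB1.5. Across the whole array 9.88% of tested probes were called higher and 75.5% lower in deposited values, and the median log2 difference was -1.58, against 0.79 over the 5 members.

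Quantile normalization gives every array the same distribution of values, and under it the members separated. PSBY rose by 1.26 (SE 0.146, adjusted p = 8.40e-06) and PSAN by 0.47 (SE 0.154, adjusted p = 0.0173). PSB27 fell by 1.56 (SE 0.598, adjusted p = 0.0342). PSBW had a log2 difference of -0.20 (95% interval -0.42 to 0.02, adjusted p = 0.102) and LHCB1.5 one of -0.05 (95% interval -0.36 to 0.26, adjusted p = 0.762). The count of 2 higher and 1 lower stands against 37.5% of probes called higher and 31.1% called lower in the same limma fit. With consecutive samples averaged, PSBY kept its call (adjusted p = 0.00336), and PSAN (adjusted p = 0.123) and PSB27 (adjusted p = 0.142) did not pass. The limma call of PSB27 was also lost without any 1 of control samples 3, 4, 5 and 6 or recovered samples 3, 5 and 6 (log2 difference -1.51 to -1.34, adjusted p from 0.0551 to 0.0769). Of the 6 consecutive pairs, control samples 1 and 2 are those in which PSB27 was low. Without them its log2 difference was -2.71, and no call is given. Without each of the other pairs the PSB27 call was lost (-1.61 to -0.99, limma adjusted p from 0.0621 to 0.191). The limma call of PSAN was lost without recovered samples 5 and 6 (0.32, adjusted p = 0.0862) and without control samples 5 and 6 (0.33, adjusted p = 0.0906). Cyclic loess, which removes a trend with brightness between arrays, left PSBY higher by 0.79 (adjusted p = 0.000217) and PSB27 lower by a log2 difference of -1.98 (adjusted p = 0.00270). PSBW, at -0.25, then passed as lower (adjusted p = 0.0394), against 0.74 as deposited, while PSAN (0.27, adjusted p = 0.119) and LHCB1.5 (0.09, adjusted p = 0.581) did not pass. PSBY was thus called higher in deposited, quantile-normalized and cyclic-loess values, and also after median centring (2.81, adjusted p = 7.08e-09), which sets the median of every array to one value. PSB27 was called lower in all of these but median centring (-0.07, adjusted p = 0.893). After median centring PSBW (2.67), PSAN (2.72) and LHCB1.5 (2.89) were called higher as well. Of the 2409 tested probes, 1085 were then called higher and 669 lower. After cyclic loess 761 were called higher and 775 lower. Calls after cyclic loess and median centring, that of PSBW included, were not repeated with consecutive samples averaged.

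**Figure D2:**
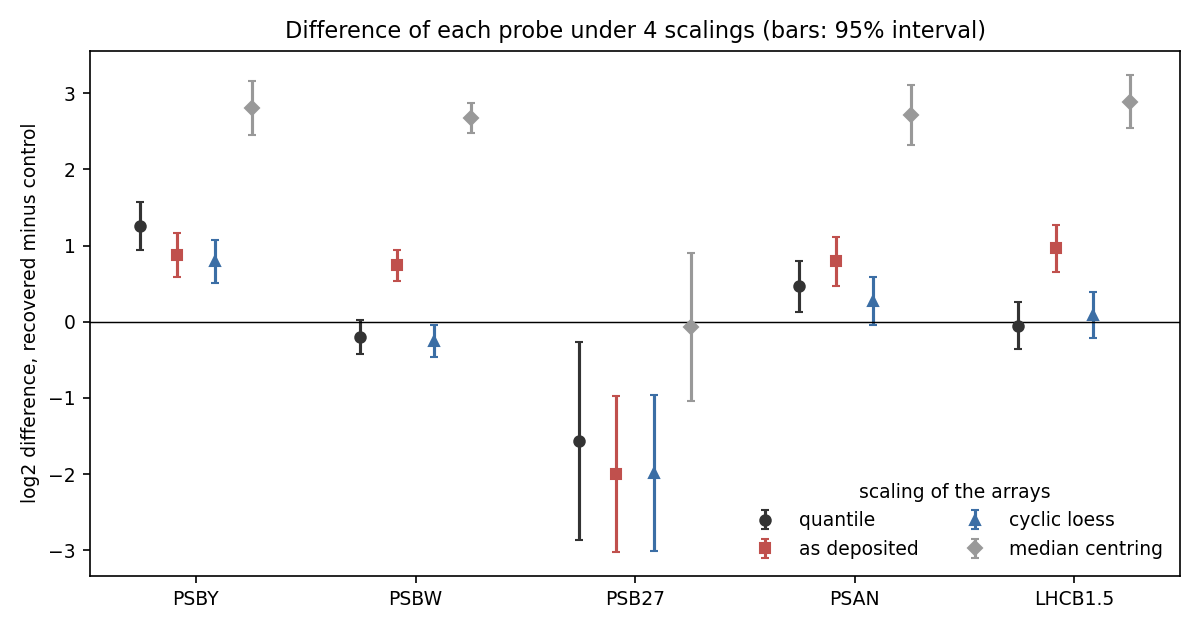
Log2 difference, recovered minus control, of each member (vertical axis) under quantile normalization, as deposited, after cyclic loess and after median centring, with 95% intervals from limma. PSBY lies above 0 under each scaling (0.79 to 2.81), PSBW and LHCB1.5 change sign with the scaling, and PSB27 has the widest intervals.

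The deposited difference depended on brightness over the whole array. The 2409 tested probes were put into 20 bins by their geometric mean over all 12 samples. In the brightest 5%, which holds PSBW, LHCB1.5 and PSAN, the median log2 difference was 0.62 and 78 of 120 probes (65%) were called higher. In the next bin, which holds PSBY, the median was 0.24 and 56 of 120 were called higher. PSB27 lies in the bin after that, with a median of -0.18 and 38 of 121 probes called higher. Below a geometric mean of 0.294 the bin medians ran from -2.57 to -2.25. The 4 higher members therefore lay 0.12 to 0.64 above the median of probes of like brightness, and PSB27 lay at -1.82 relative to it. The part that brightness has in the members' deposited differences was not tested.

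**Figure D3:**
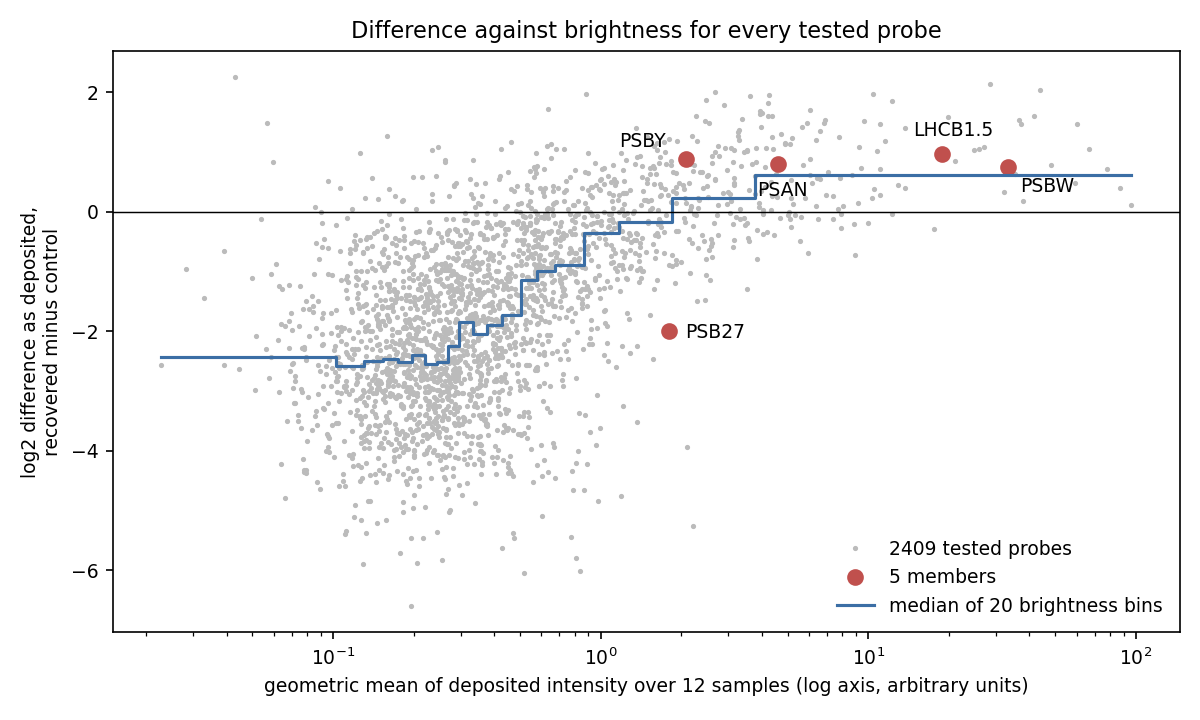
Log2 difference as deposited, recovered minus control (vertical axis), against the geometric mean intensity over 12 samples (horizontal log axis, arbitrary units) for 2409 tested probes (grey), with the 5 members in red and the median of 20 brightness bins as a blue line. PSBY, PSAN, LHCB1.5 and PSBW lie among bright probes above 0, and PSB27 lies at -1.999 below its bin median of -0.18.

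Within each array the 3439 probes were also ranked, which no rescaling that keeps the order of probes can change. A rank is a place among probes and not a transcript amount, since probes differ in how they respond. PSBY moved most clearly: it was the 157th to 217th brightest probe in recovered samples, against the 319th to 536th in control samples. Its percentile rank was 94.8 ± 0.618 in recovered and 87.3 ± 2.42 in control samples (SD, n = 6 each), a gain of 7.48 points with no overlap (exact permutation test, two-sided, p = 0.00216, the lowest value 6 against 6 samples allow; adjusted p = 0.00434 over 3439 probes). PSAN had a percentile rank of 97.4 ± 0.636 in recovered and 96.1 ± 0.774 in control samples, a gain of 1.26 points (exact permutation p = 0.0108, adjusted p = 0.0183), and its groups overlapped, with ranks from the top of 62 to 127 in recovered and 109 to 178 in control samples. The PSAN call was lost without recovered samples 3 and 4 (1.24 points, adjusted p = 0.0700, exact permutation test), recovered samples 5 and 6 (0.96 points, adjusted p = 0.0902) or control samples 5 and 6 (0.79 points, adjusted p = 0.0809).

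PSBW and LHCB1.5 kept near the top of both groups. There a percentile rank has almost no room to rise, so the lack of a gain does not show that these transcripts did not rise. PSBW was the 12th to 18th brightest probe in recovered samples and the 11th to 14th in control samples, a difference of -0.073 percentile points (exact permutation p = 0.0476, adjusted p = 0.0688). It passed as lower without recovered sample 1 or 2 or both, without control sample 4, or without control samples 3 and 4 (adjusted exact permutation p from 0.0314 to 0.0437). LHCB1.5 was the 21st to 25th in recovered samples and the 19th to 26th in control samples, a difference of -0.0097 points (exact permutation p = 0.879, adjusted p = 0.901). PSB27 ranked 341st to 472nd in recovered samples. In control samples it ranked 554th and 651st in samples 1 and 2 but 49th to 77th in the other 4, so that recovered samples lay between the 2 kinds of control sample. Its mean difference was -4.92 points (exact permutation p = 0.186, adjusted p = 0.233). Leaving out a pair of control samples moved it to -10.2 points without samples 1 and 2, -2.48 without samples 3 and 4 and -2.12 without samples 5 and 6. Samples 1 and 2 are those in which PSB27 was low, so no test is given without them. The adjusted exact permutation p was 0.584 without samples 3 and 4 and 0.637 without samples 5 and 6. In rank 2 members were thus called higher, against 38.1% of all probes, and 0 lower, against 28.4%. At an unadjusted exact p under 0.05, PSBW was lower as well. PSBY was the 1 member whose groups did not overlap in rank, and 29.6% of all probes did not overlap with recovered samples above.

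**Figure D4:**
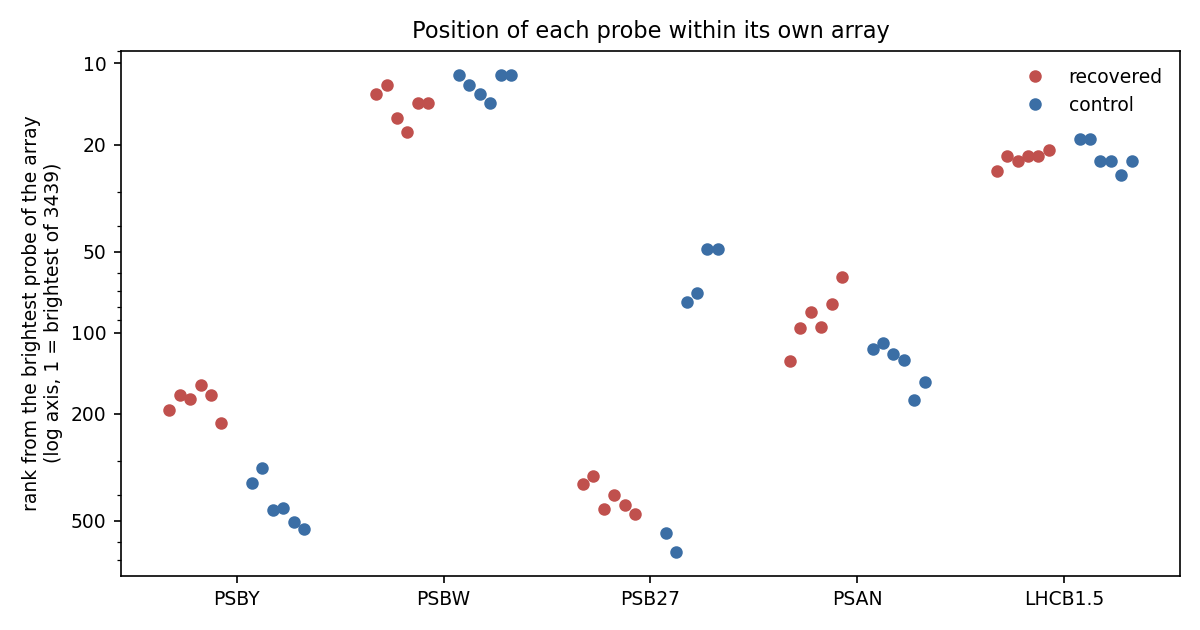
Rank from the brightest probe of the same array (vertical log axis, 1 is the brightest of 3439, brightest at the top) for each member in 6 recovered (red, left) and 6 control samples (blue, right), in the order of the sample numbers. PSBY lies higher in every recovered sample, PSBW and LHCB1.5 stay within ranks 11 to 26, and the control samples of PSB27 fall both above and below its recovered samples.

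Ratios between members on the same array show whether they changed by unequal amounts, and a constant factor on an array leaves them as they are. The level of such a ratio depends on the probes, so the difference between groups is what is compared. Of the 10 ratios in deposited values, the 4 that hold PSB27 differed between groups and the 6 among PSBY, PSBW, PSAN and LHCB1.5 did not pass. The log2 ratio of PSBY over PSB27 was 1.66 ± 0.382 in recovered and -1.22 ± 1.38 in control samples (SD, n = 6 each), a difference of 2.88. That of PSBW over PSB27 was 5.58 ± 0.270 in recovered and 2.84 ± 1.21 in control samples, a difference of 2.74. For PSB27 over PSAN the difference was -2.79 and for PSB27 over LHCB1.5 it was -2.96. Each of these 4 had no overlap between groups, control samples 1 and 2 included (exact two-sided permutation p = 0.00216, the smallest possible, adjusted p = 0.00541 over the 10 ratios). Such results were common on the array: over all ratios of 2 tested probes 71.7% had an exact p under 0.05 and 53.8% did not overlap. The 4 ratios share PSB27 and are not separate results. Relative to the other members PSB27 stood at 0.128 to 0.149 times its control ratio. With consecutive samples averaged the groups of 3 still did not overlap in these 4 ratios, where the smallest exact p is 0.10.

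Among the other 4 genes, the differences in log2 ratio ran from -0.22 for PSBW over LHCB1.5 to 0.13 for PSBY over PSBW. All 6 groups of values overlapped (exact permutation p from 0.158 to 0.773, adjusted p from 0.285 to 0.773). Before adjustment, 3 of them fell below 0.05 when a pair of samples was left out. These were PSBW over LHCB1.5 (-0.38, exact permutation p = 0.0286) and PSAN over LHCB1.5 (-0.27, exact permutation p = 0.0476) without control samples 1 and 2, and PSBY over PSAN (0.29, exact permutation p = 0.0238) without recovered samples 5 and 6. The spread of these ratios was 0.197 to 0.395 in recovered and 0.123 to 0.306 in control samples (SD of log2), so small differences between these 4 genes were not detectable with 6 samples a group. As above, over all 2900436 ratios of 2 tested probes 71.7% had an exact p under 0.05 and 53.8% did not overlap.

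Quantile normalization is not a constant factor, and it changed this picture. In quantile-normalized values 6 of the 10 ratios passed at an adjusted exact permutation p under 0.05, while 66.9% of all ratios had an unadjusted exact p under 0.05, as 7 of the 10 did. PSBY then rose relative to PSBW by 1.45 and to LHCB1.5 by 1.31 (adjusted p = 0.00722 each, exact permutation test), and relative to PSAN by 0.79 (adjusted p = 0.0130). PSAN rose relative to LHCB1.5 by 0.52 (adjusted p = 0.00722), and PSBW fell relative to PSAN, with a difference of -0.66 (adjusted p = 0.0144). PSBY over PSB27 kept its call, with a difference of 2.82 (adjusted p = 0.0108), and the other 3 ratios with PSB27 kept their direction but missed the threshold (adjusted p from 0.0618 to 0.0697). On the deposited scale unequal change among PSBY, PSBW, PSAN and LHCB1.5 was thus not detected, which does not show that they changed equally. After quantile normalization it was called in the ratios of these genes named above. The departure of PSB27 from PSBY passed on both scales. In quantile-normalized values, however, the groups overlapped in all 4 ratios with PSB27.

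**Figure D5:**
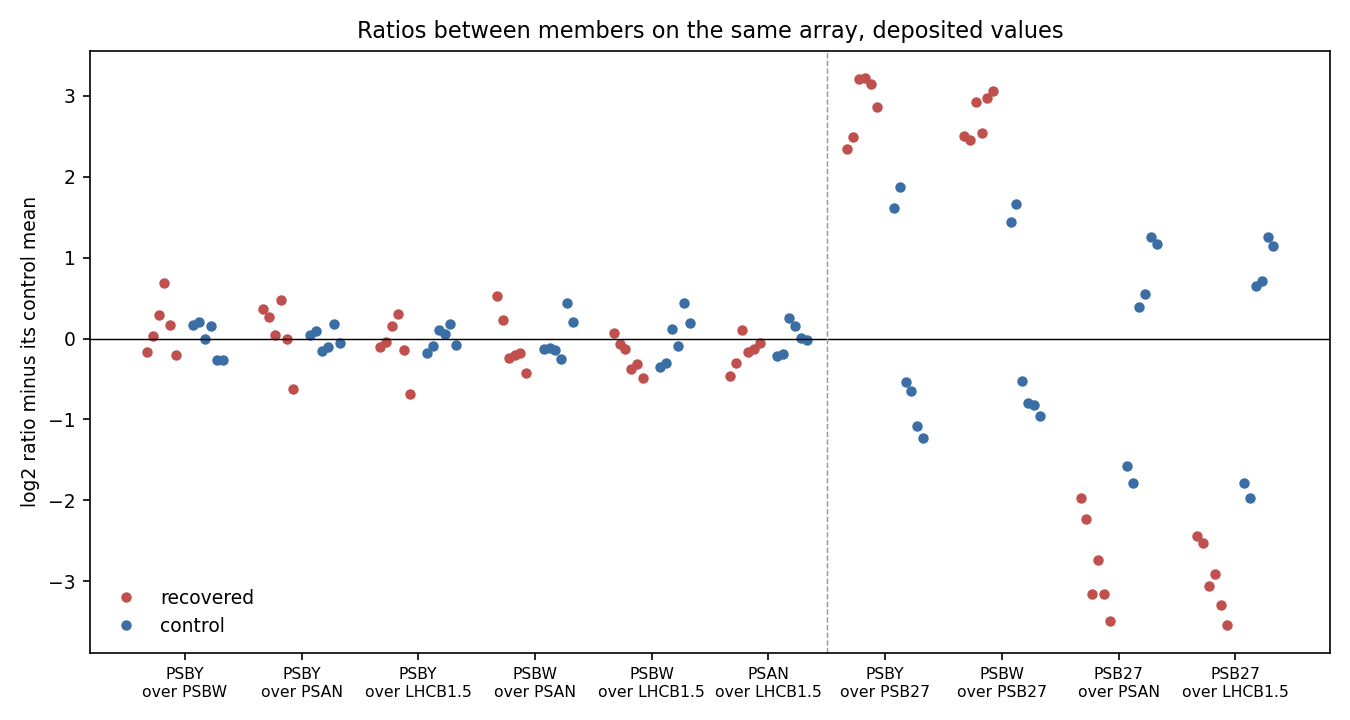
Log2 ratio of 2 members on the same array in deposited values, minus the control mean of that ratio (vertical axis), for 10 ratios in 6 recovered (red, left) and 6 control samples (blue, right). The 6 ratios left of the dashed line, without PSB27, overlap between groups, and the 4 ratios with PSB27 on the right do not.

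The members varied by unequal amounts within groups. PSBW was the steadiest, with a log2 SD of 0.126 in recovered and 0.0998 in control samples. PSB27 had an SD of 0.326 in recovered samples, below the array's median of 0.421, but 1.201 in control samples, against a median of 0.184, and its highest control sample was 6.13 times its lowest. Only 17 of 2409 tested probes, PSB27 included, had a control SD at least as large. PSBY (0.248 in recovered, 0.182 in control samples) and PSAN (0.291 and 0.198) varied more in recovered samples, as the median probe did. LHCB1.5 (0.171 in recovered, 0.285 in control samples) varied less there.

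The single-gene probes most like each member were found by the root mean square difference between quantile-normalized log2 profiles over the 12 samples, each centred on its own mean, among 467 other single-gene probes. The profiles nearest to PSBY were those of AT2G35390 (0.162), AT4G31470 (0.169) and AT1G62250 (0.192). In deposited values AT4G31470 and AT1G62250 were also higher after recovery, by log2 differences of 0.999 and 1.49, and AT2G35390 was lower, at -0.55. Nearest to LHCB1.5 were AT1G50390 (0.121), AT3G54210 (0.143) and AT1G74470 (0.153), a geranylgeranyl reductase, which makes the phytyl tail of chlorophyll. In deposited values AT1G50390 and AT3G54210 were lower after recovery, with log2 differences of -0.99 and -1.24 (limma adjusted p = 2.67e-06 and 2.14e-06). AT1G74470 had intensities of 2.86 ± 0.155 in recovered and 2.65 ± 0.258 in control samples and a deposited log2 difference of 0.11 (limma adjusted p = 0.272), where LHCB1.5 was at 0.96.

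Nearest to PSBW were AT1G50770 (0.127), the chromatin remodelling gene chr31 (AT1G05490, 0.128) and AT4G39760 (0.167). Their deposited log2 differences were -0.55, -0.76 and -0.054, against 0.74 for PSBW. Nearest to PSAN were AT3G29185 (0.171), AT4G08940 (0.205) and ATSPS4F (AT4G10120, 0.206), a sucrose-phosphate synthase. Their deposited log2 differences were -1.84, -0.48 and -0.78, against 0.79 for PSAN. The profiles nearest to PSB27 were farther away. AT4G21770, AT2G19870 and AT2G25870, which is named by 2 probes of which this is one, lay 0.534, 0.619 and 0.696 away. Their quantile-normalized log2 differences were -1.24, -1.33 and -0.77. The direction follows largely from their choice by likeness to PSB27 in these same values, so no test is given. In deposited values all 3 were lower as well (-3.06 to -2.69), where 75.5% of tested probes were called lower. Between members the smallest distance was 0.251, between PSBW and LHCB1.5, and the largest was 1.86, between PSBY and PSB27. No member was among the 3 nearest profiles of another.

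Few other genes of the pathway could be read. Of 50 nuclear genes listed for photosystem II subunits and assembly, photosystem I subunits and the antenna, these 5 had a probe of their own, 4 were named only by probes that name several genes, and 41 were named by no probe in the annotation used here. Of 21 genes for electron transport, photosystem II repair and photoprotection, 0 had a probe of their own. The 5 members thus stand for 3 of 16 photosystem II genes, 1 of 13 photosystem I genes and 1 of 21 antenna genes.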

How the data were processed

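The deposited table gives each probe 1 linear intensity in each sample. The authors' correction and scaling of these deposited intensities are not given in the sources used here. Samples were grouped by their titles. Genes come from the platform annotation, which names 1 gene for 692 probes, several for 870 and none for 1877; symbols come from the TAIR10.1 gene table, which held 690 of the 692.

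Probes at 0 on any array (1030 of 3439) were left out, and log2 intensities of the other 2409 were quantile normalized and tested with limma 3.58.1 in R 4.3.3 (lmFit and eBayes, two-sided, recovered against control, no replicate block). Deposited values were tested alike. Ranks (all 3439 probes, adjusted over them) and ratios were tested by exact two-sided permutation over the 924 ways to divide 12 samples into 6 and 6. Fits were tested on simulated data with independent samples and few changed probes. That setting lacks the likeness of consecutive samples and the difference over the whole array seen here. Python 3.11.15 was used for the rest. Named genes are the 5 members and the 3 nearest profiles of each. Alternatives changed scaling, filter, offset, zeros and replicates. The members and lists were chosen with earlier results of these data known. The number of arrays limits the precision.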

Additional observations from a re-analysis of the deposited data

How the results depend on the processing

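In deposited values the 5 members kept direction and call under every alternative run (an offset of 0.1, averaged consecutive samples, the replicate block, and leaving out each sample or consecutive pair). Over all results, 554 alternative values kept the direction and the side of the threshold, or lay near the first value, and 71 did not. The 554 include ranks and ratios with consecutive samples averaged. These have no p, so their side of the threshold was not compared. Leaving out consecutive pairs was added after seeing the data for deposited values, ranks and ratios. The unknown background and scaling limit every size given here, and the causes of the changes below were not tested.

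Leaving out the dimmer 50% of probes gave 947 calls (532 higher, 415 lower), since fewer were tested, against 1653 (903 higher, 750 lower); deposited values gave 238 higher and 1819 lower. PSBW, at -0.20 after quantile normalization, was at 0.74 in deposited values, 2.67 with median centring and -0.25 with cyclic loess. LHCB1.5, at -0.05, was at 0.96, 2.89 and 0.089 in the same order. PSB27 missed the threshold after median centring (-0.071), with probes with zeros kept (-1.52) and with averaged samples (-1.56), and PSAN after cyclic loess (0.27) and with averaged samples (0.47). Leaving out samples or pairs, the quantile-normalized difference ran from -0.29 to -0.096 for PSBW, -2.71 to -0.99 for PSB27, 0.32 to 0.58 for PSAN and -0.18 to 0.15 for LHCB1.5. The rank difference ran from -0.10 to -0.036 points for PSBW, -10.2 to -2.12 for PSB27, 0.79 to 1.57 for PSAN and -0.044 to 0.036 for LHCB1.5. Without some pairs PSAN lost its call in both measures and PSB27 in quantile-normalized values, and PSBW passed as lower in rank without some samples.

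In quantile-normalized values the difference in log2 ratio was 1.45 for PSBY over PSBW, 0.79 for PSBY over PSAN, 1.31 for PSBY over LHCB1.5, 1.36 for PSBW over PSB27, -0.66 for PSBW over PSAN, -1.51 for PSB27 over LHCB1.5 and 0.52 for PSAN over LHCB1.5. Leaving out samples or pairs, the deposited ratio difference ran from -0.040 to 0.23 for PSBY over PSBW, -0.027 to 0.29 for PSBY over PSAN, -0.24 to 0.080 for PSBY over LHCB1.5, -0.26 to 0.11 for PSBW over PSAN, -0.38 to -0.061 for PSBW over LHCB1.5 and -0.27 to -0.065 for PSAN over LHCB1.5, and 3 of these 6 fell below an unadjusted exact p of 0.05 without 1 pair (PSBY over PSAN, PSBW over LHCB1.5 and PSAN over LHCB1.5). In deposited values every ratio with PSB27 kept its direction and an exact p under 0.05 when a sample or pair was left out. In quantile-normalized values PSBW over PSB27 (exact permutation p = 0.0606) and PSB27 over LHCB1.5 (exact permutation p = 0.0628) did not.

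Equal sample numbers were not taken to pair recovered with control samples, since the labels do not say that a number marks a shared origin. Deviations of such samples correlated at -0.026 to 0.10. With the replicate block PSB27 (-1.56, limma adjusted p = 0.0581) and PSAN (0.47, limma adjusted p = 0.0567) missed the threshold in quantile-normalized values. No other call of a member changed. PSAN over LHCB1.5 (-0.17) then had an unadjusted exact sign-flip permutation p of 0.0312, the smallest that 6 pairs allow. The 4 deposited ratios with PSB27 had the same p. These p-values were not adjusted over the ratios, so no call of a ratio is drawn from them.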
